A study of Mus musculus with 12 samples.

Results

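The genes described here are Il3 and Csf2, which encode the cytokines interleukin-3 and GM-CSF, and the 4 genes of the receptor chains that bind them: Csf2rb, Csf2rb2, Csf2ra and Il3ra. They were taken by name from a table of 23185 genes measured in mouse splenic CD4+ T cells, and all 6 were measured. Il3 and Csf2 were chosen by their log2 levels after activation, which were known to be higher in Cre+ than in Cre- cells, so those levels are given as a description without a test. The receptor genes were added by name as partners of the cytokines.

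Expression was measured on 12 Mouse Gene 2.0 ST arrays, with 3 arrays in each of 4 groups. Control cells were Lck-Cre-;Ikzf+/+ and are called Cre-. Cells of the other genotype were Lck-Cre+;Ikzf-/- and are called Cre+. In these the transcription factor Ikaros is labelled as deleted, with a Cre recombinase under the promoter of Lck, a kinase gene of the T lineage. Each genotype was profiled at baseline (0 hours) and after 24 hours of activation on plates coated with an antibody to CD3, with an antibody to CD28 in solution. No group with Cre and intact Ikaros, and no group cultured for 24 hours without these antibodies, was analysed here. The effects of Cre and of the deletion, or of culture and of the antibodies, therefore cannot be told apart. The ages of the mice were not given in the sources used here.

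Interleukin-3 and GM-CSF are growth factors for myeloid cells, and stimulated T cells are a main source of both. Each cytokine binds its own alpha chain, Il3ra for interleukin-3 and Csf2ra for GM-CSF, and this pairs with the common beta chain encoded by Csf2rb. Mice carry a close relative of that chain, Csf2rb2, which serves interleukin-3 alone. The beta chains signal through the kinase JAK2 and the transcription factor STAT5. The receptors are best known on monocytes, macrophages, dendritic cells, granulocytes, basophils and mast cells.

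All values are log2 expression, so a difference of 1 is a doubling of the signal. Levels of different genes are not set against each other, since each probe set has its own brightness. Differences come with the standard error (SE) of 1 limma model over all 12 arrays, and a difference passed at a Benjamini-Hochberg adjusted p under 0.05 over the 23185 genes. Of all genes, 0.552% passed between the genotypes at baseline and 0.729% after activation. An unadjusted p under 0.05 was reached by 1606 and 1741 of the 23185 genes there, and by 1089 for the difference of the activation responses. Such counts for lists below are to be read against these. The mean of 6 measured T cell markers lay between 10.18 and 10.36 on the baseline arrays and between 9.63 and 10.04 on the activated arrays. The mean of 9 B cell markers lay between 8.05 and 8.48 at baseline, and between 5.12 and 7.26 on the activated arrays. Xist and Eif2s3y showed both sexes in every group. The level of Ikzf1 itself differed between the genotypes by -0.17 at baseline (adjusted p = 0.968) and by -0.13 after activation (adjusted p = 0.993) in limma, so this probe set does not check the labels.

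Il3 and Csf2 lie side by side on chromosome 11. Of the protein-coding genes measured here, none starts between them in RefSeq (GRCm38.p6), and both are read from the minus strand. The 250 bases before their start sites are shown because both genes were high in activated Cre+ cells. They are given 5′ to 3′ in the direction of each gene, from chr11:54267280-54267529 for Il3 and chr11:54249900-54250149 for Csf2. The Csf2 start is the outermost one in RefSeq, and other starts were not analysed here. Capitals mark matches to the motifs searched on both strands: the Ikaros core TGGGAA, the NFAT core GGAAA, the AP-1 site TGANTCA and the RUNX core TGTGGT.
Il3: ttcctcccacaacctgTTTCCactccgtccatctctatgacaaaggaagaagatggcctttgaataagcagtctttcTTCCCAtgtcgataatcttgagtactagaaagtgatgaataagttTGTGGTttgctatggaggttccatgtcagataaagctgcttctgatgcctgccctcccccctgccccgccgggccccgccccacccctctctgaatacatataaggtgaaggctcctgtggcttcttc
Csf2: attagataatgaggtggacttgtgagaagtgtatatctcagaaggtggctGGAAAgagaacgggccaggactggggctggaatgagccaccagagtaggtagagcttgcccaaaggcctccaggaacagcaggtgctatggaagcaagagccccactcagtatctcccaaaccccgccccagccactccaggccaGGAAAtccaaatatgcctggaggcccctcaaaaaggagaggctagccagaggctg
The Il3 window held 1 Ikaros core, 173 to 168 bases before the start on the opposite strand, and the Csf2 window held 0. Among 32851 RefSeq promoter windows of this length, 21.6% held that core. An NFAT core occurred 1 time in the Il3 window and 2 times in the Csf2 window, and it occurred in 55.6% of all windows. The RUNX core was found 1 time, 128 to 123 bases before the Il3 start, and in 14.0% of all windows. The AP-1 site was found in neither window and in 6.75% of all windows. NFAT, AP-1 and RUNX factors are known regulators of T cell cytokine genes. These matches describe letters only, and binding was not measured. Of the 6 genes, 5 had such a window. The Csf2ra window held 1 Ikaros core that overlapped 1 NFAT core, and none of the 4 motifs occurred in the windows of Csf2rb2 and Il3ra.

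Without activation, the cytokine genes were at the bottom of their range in both genotypes. Il3 read 2.68, 2.72 and 2.81 at baseline in Cre- cells and 2.93, 2.95 and 2.39 in Cre+ cells. Csf2 read 2.67, 2.71 and 2.57 in Cre- cells and 2.98, 2.59 and 2.69 in Cre+ cells. The genotypes overlapped for both genes. The genotype difference at baseline was 0.03 (SE 0.25, 95% interval -0.53 to 0.58) for Il3 and 0.10 (SE 0.34, 95% interval -0.63 to 0.84) for Csf2. Neither passed (limma, adjusted p = 0.9999 for both), nor did any of the 4 receptor genes, in a comparison where 0.552% of all genes passed.

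After activation Il3 read 4.15, 4.24 and 4.92 in Cre- cells and 8.02, 7.58 and 8.50 in Cre+ cells. All 3 Cre+ arrays lay above all 3 Cre- arrays, and the lowest Cre+ array was 6.31-fold above the highest Cre- array. The group means were 4.44 ± 0.43 and 8.03 ± 0.46 (SD, n = 3), a difference of 3.60 or 12.1-fold. Activated Il3 was thus 3.25-fold above its baseline mean in Cre- cells and 38.7-fold above it in Cre+ cells. The baseline values lie below the array medians (4.04 to 4.17), where signal is hard to tell from background. Folds against them, and differences of responses built on them, are therefore not exact sizes and may understate the change, also for Csf2 and Il2. The difference of these responses was 3.57 on the log2 scale (SE 0.36). The activated Cre- values of 4.15 and 4.24 also lie near the array medians, so the 12.1-fold is not an exact size either.

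Csf2 read 4.05, 3.92 and 4.24 in activated Cre- cells and 6.68, 5.96 and 7.79 in activated Cre+ cells. These groups did not overlap either, and the lowest Cre+ array was 3.30-fold above the highest Cre- array. The means were 4.07 ± 0.16 and 6.81 ± 0.92 (SD, n = 3), a difference of 2.74 or 6.68-fold. The Cre- values lie near the array medians (4.04 to 4.17), so this fold is not an exact size either and may understate the change. Activated Csf2 was 2.68-fold above its baseline mean in Cre- cells and 16.6-fold above it in Cre+ cells, with a difference of responses of 2.64 (SE 0.47). Its spread among the Cre+ arrays was wider than that of Il3. Without Cre+ array 3 the genotype difference was 2.25, and without Cre+ array 2 it was 3.17. Because the genes were chosen for this contrast, these differences have no p. In it 0.729% of all genes passed, and in 5.25% of genes all 3 Cre+ arrays lay above the Cre- arrays.

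**Figure D1:**
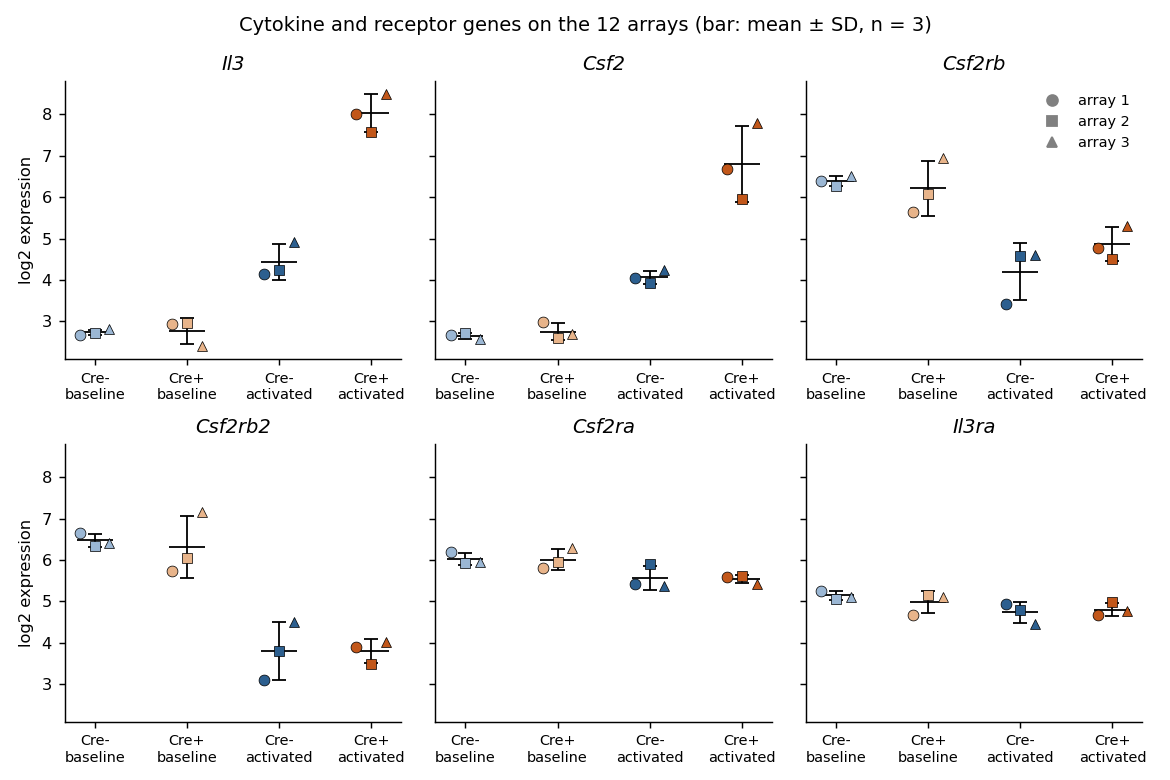
Log2 expression of the 6 genes on each of the 12 arrays, with the mean and SD of each group of 3 arrays. Il3 and Csf2 are high on the 3 activated Cre+ arrays, at 7.58 to 8.50 and 5.96 to 7.79, while Csf2rb and Csf2rb2 are lower on the activated arrays of both genotypes.

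The order of the group means was the same for both cytokines: Cre- baseline, Cre+ baseline, Cre- activated and Cre+ activated. The neighbours in that order that did not differ beyond their spread were the 2 baseline groups. Over the 12 arrays Il3 and Csf2 had a Pearson correlation of 0.987 and a Spearman correlation of 0.853. These arrays share 4 groups, so the values describe the group pattern and carry no p. On the activated Cre+ arrays both genes were highest on array 3, then array 1, then array 2.

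Arrays of the same sex could be compared within the activated state. The activated Cre- arrays 2 and 3 read as female by Xist and Eif2s3y, and their Il3 values were 4.24 and 4.92. The activated Cre+ array that read as female was array 2, with Il3 at 7.58. On the arrays that read as male, Il3 was 4.15 in Cre- cells and 8.02 and 8.50 in Cre+ cells. Csf2 was 3.92 and 4.24 against 5.96 on the female arrays and 4.05 against 6.68 and 7.79 on the male arrays. The groups do not overlap, so this order was fixed whatever the sex, and the part of sex in the difference was not tested.

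Other measured features also varied among the activated arrays. The mean of 9 B cell markers was 5.12, 5.63 and 6.53 in Cre- cells and 6.73, 5.84 and 7.26 in Cre+ cells. All 9 were higher on average in Cre+ cells, with a median difference of 0.95. In limma 0 of 9 passed, against 0.729% of all genes. An unadjusted p under 0.05 was reached by 4 of the 9, against 1741 of 23185 genes. The mean of 20 cell cycle genes was 6.58, 6.57 and 8.89 in Cre- cells and 7.17, 6.52 and 8.55 in Cre+ cells, so array 3 of each genotype stood apart. The mean of 8 monocyte and macrophage markers was 4.14, 4.28 and 4.23 in Cre- cells and 4.48, 4.51 and 4.55 in Cre+ cells, so the genotypes did not overlap. Of these 8 markers 7 were higher on average in Cre+ cells and 0 passed, with 1 at an unadjusted p under 0.05. The mean of 4 markers of NK and innate lymphoid cells was 5.37, 4.95 and 4.75 in Cre- cells and 5.54, 5.35 and 5.56 in Cre+ cells. Eomes averaged 6.94 in Cre- and 8.42 in Cre+ cells, Rora 5.97 and 6.09, Klrb1c 3.87 and 3.95, and Ncr1 3.32 and 3.49. All 4 markers were thus higher on average in Cre+ cells, mostly by little, and 0 passed, with 1 at an unadjusted p under 0.05. The part of these cells and of the cell cycle in the levels of Il3 and Csf2 was not tested. Without both arrays numbered 3 the genotype difference was 3.61 for Il3 and 2.33 for Csf2.

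**Figure D2:**
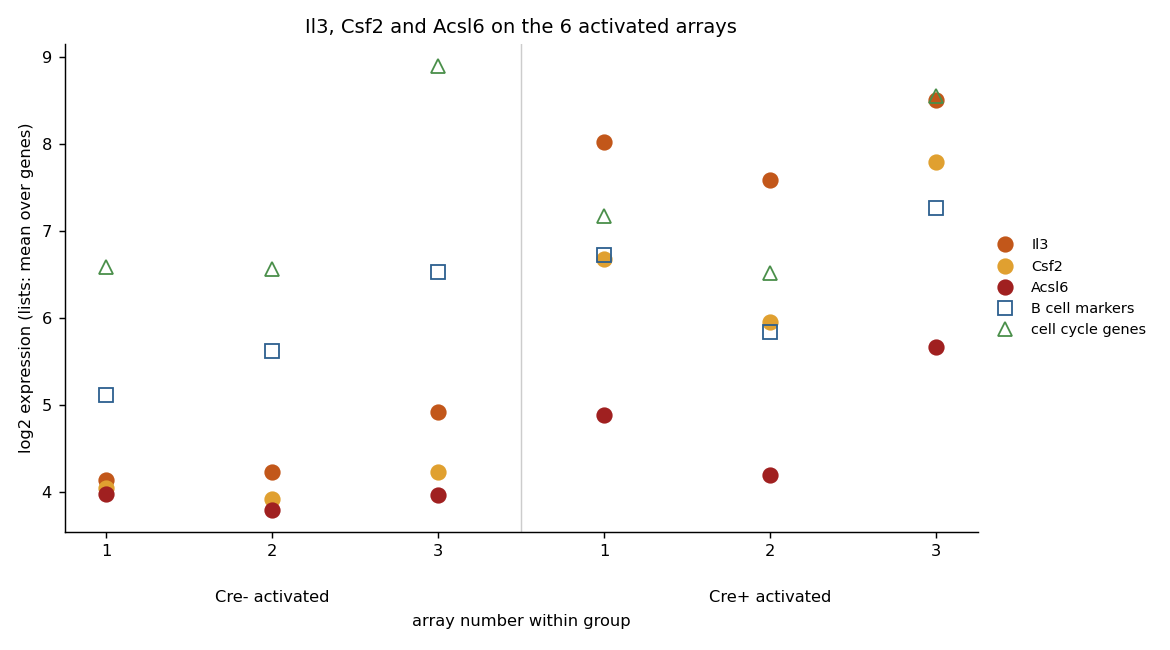
Log2 expression of Il3, Csf2 and Acsl6 on the 6 activated arrays, with the mean of 9 B cell markers (open squares) and of 20 cell cycle genes (open triangles). On the Cre+ arrays all 3 genes and both lists are highest on array 3 and lowest on array 2, and cell cycle genes are also high on Cre- array 3 (8.89).

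The genes around the pair were examined next, 6 measured protein-coding genes on each side. Of these 12, 0 passed between the genotypes at baseline and 0 passed after activation, against 0.552% and 0.729% of all genes (limma). An unadjusted p under 0.05 was reached by 3 of the 12 in each comparison, against 1606 and 1741 of 23185 genes. The 12 differences after activation ran from -0.37 for Lyrm7 to 1.00 for Acsl6, with a median of -0.02 against -0.01 for all genes. Acsl6 encodes an acyl-CoA synthetase and is the neighbour of Il3 on the side away from Csf2. It read 3.98, 3.80 and 3.96 in activated Cre- cells and 4.88, 4.20 and 5.66 in activated Cre+ cells. The groups did not overlap, and the Cre+ arrays ranked 3, 1, 2, as they did for Il3 and Csf2. The means of the B cell markers and of the cell cycle genes took the same order on these arrays. The difference of 1.00 (SE 0.26) did not pass (adjusted p = 0.166), but it did with array weights (adjusted p = 0.00115) and without Cre+ array 2 (adjusted p = 0.00514). Without Cre+ array 3 it was 0.62 (adjusted p = 0.243). Array weights passed many more of the 23185 genes than the model without weights. The counts were 321 against 128 between genotypes at baseline, and 2416 against 169 after activation. They were 143 against 2 for the difference of responses, and 8292 against 4795 for activation in Cre+ cells. A pass with array weights, here and below, is to be read against these counts.

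Activation moved Acsl6 by 1.25 in Cre+ cells (adjusted p = 0.0059) and by 0.14 in Cre- cells (adjusted p = 0.801). The difference of these responses was 1.11 and did not pass (adjusted p = 0.895 in limma), though it did with array weights (adjusted p = 0.0441). Pdlim4, which encodes a LIM domain protein and lies beyond P4ha2 on the Csf2 side, was higher in Cre+ cells by 0.77 at baseline (adjusted p = 0.303) and by 0.88 after activation (adjusted p = 0.150). Neither difference passed in the fit to all 12 arrays, whereas both passed with array weights (adjusted p = 0.0437 and 0.002). The baseline difference also passed in the fit to the baseline arrays alone (adjusted p = 0.0285), without Cre- activated array 3 (adjusted p = 0.0391) and without both activated arrays numbered 3 (adjusted p = 0.0364). The difference after activation passed with the replicate number as a block (adjusted p = 0.0402). The measured protein-coding genes between Pdlim4 and Acsl6 are P4ha2, Csf2 and Il3.

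**Figure D3:**
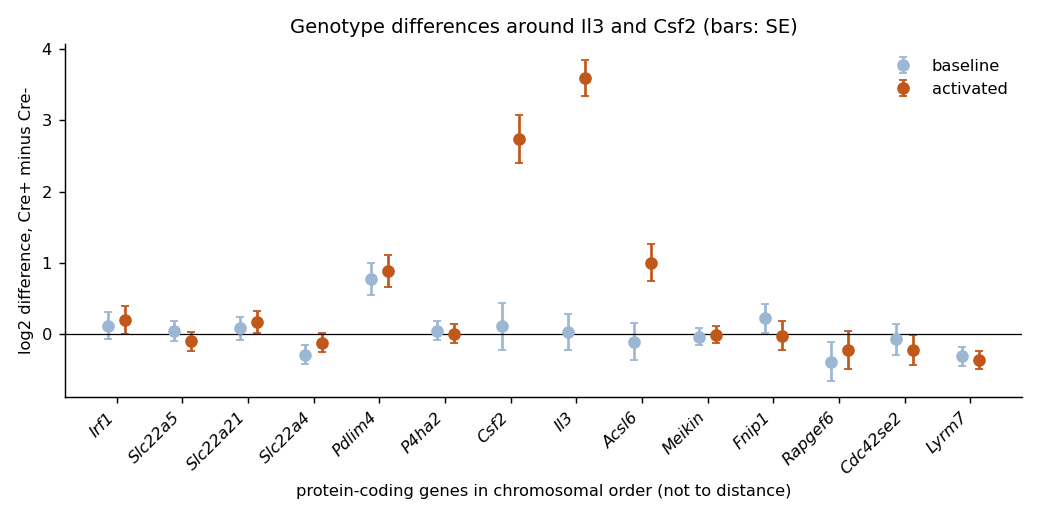
Difference of Cre+ minus Cre- in log2 expression for Il3, Csf2 and 12 neighbouring protein-coding genes in chromosomal order, at baseline and after activation, with bars for the SE. After activation Il3 (3.60) and Csf2 (2.74) stand above the neighbours, of which Acsl6 (1.00) is the highest.

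For comparison, 22 other cytokine genes of T cells were examined. Like the other lists, this list was chosen with earlier results of these data known, so counts in it are a description. On all arrays Il5, Il6, Il17a, Il17f, Il22, Il31 and Csf3 lay below the array medians (4.04 to 4.17), where signal is hard to tell from background. None of the 22 passed between the genotypes at baseline in limma, with 4 at an unadjusted p under 0.05. Tnfsf11, with a baseline difference of 0.67 (adjusted p = 0.252), passed with array weights (adjusted p = 0.0348) and without both activated arrays numbered 3 (adjusted p = 0.04998). After activation 3 of 22 were higher in Cre+ cells and 0 were lower, while 0.63% of all genes were higher. These were Il2, the T cell growth factor, Ifng, the main cytokine of type 1 helper cells, and Tnfsf11, the osteoclast factor RANKL. Their differences were 1.49 (adjusted p = 0.0355), 1.84 (adjusted p = 0.00108) and 1.87 (adjusted p = 0.000685). All 3 calls were lost in a limma fit to the 6 activated arrays alone, with adjusted p of 0.44, 0.0937 and 0.0838. That fit has fewer residual degrees of freedom and takes its spread from the activated arrays only. The cause of the loss was not tested. The call for Il2 was lost in 12 of 20 alternatives in all, among them every fit without 1 array except those without activated Cre- array 3 or activated Cre+ array 2. The median of the 22 differences was 0.26.

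Activation raised 10 of the 22 genes in Cre- cells and 12 in Cre+ cells, against 9.39% and 10.1% of all genes, and lowered none in limma. The 2 type 2 cytokines Il4 and Il13 differed between the genotypes after activation by 0.52 (adjusted p = 0.329) and 0.64 (adjusted p = 0.198). Both passed with array weights, where 2416 of all genes passed. Il4 also passed without Cre+ array 3 (0.75, adjusted p = 0.0176), and Il13 without Cre- array 3 (0.82, adjusted p = 0.0387). Il2 rose by 5.22 in Cre- and 6.59 in Cre+ cells, from baseline values that also lie near the bottom of the range. The difference of these responses did not pass for Il2 (adjusted p = 0.739). It was 1.86 for Ifng (adjusted p = 0.0881) and 1.19 for Tnfsf11 (adjusted p = 0.328). None of the 22 passed in limma, against 0.00863% of all genes. An unadjusted p under 0.05 was reached by 7 of the 22, against 1089 of 23185 genes. With array weights, where 143 of all genes passed, Il2, Ifng and Tnfsf11 were among them. Ifng also passed without Cre- activated array 3 (1.99, adjusted p = 0.0440). The corresponding values were 3.57 for Il3 and 2.64 for Csf2. In Cre- and Cre+ cells the baseline means were 3.66 and 3.65 for Ifng, 3.72 and 3.78 for Il4, and 3.77 and 3.72 for Il13. These also lie below the array medians (4.04 to 4.17), so changes from them are not exact sizes either.

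**Figure D4:**
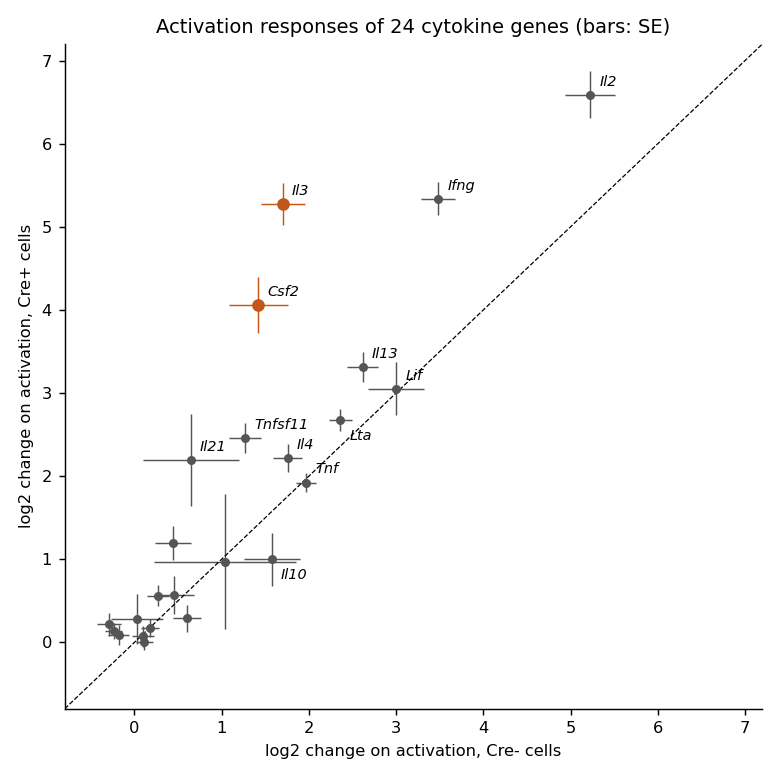
Log2 change on activation in Cre- cells (horizontal axis) and in Cre+ cells (vertical axis) for Il3, Csf2 and 22 other T cell cytokine genes, with bars for the SE and a dashed line of equal change. Il3 (1.70 and 5.27) and Csf2 (1.42 and 4.06) lie above the line, as does Ifng (3.48 and 5.34).

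Il5 is the relative of Il3 and Csf2 whose receptor uses the same common beta chain. Its difference between the genotypes after activation was -0.10 (SE 0.16, adjusted p = 1), and it turned to 0.18 with array weights and 0.02 without Cre+ array 2. Activation raised Il5 by 0.60 in Cre- cells (adjusted p = 0.0242), a call that was lost with array weights (adjusted p = 0.0569), in the fit to the Cre- arrays alone (adjusted p = 0.0629), and without Cre- baseline array 1 or 3, Cre- activated array 1 or 3, or both activated arrays numbered 3 (adjusted p from 0.0578 to 0.0958). Its receptor chain Il5ra differed by 0.29 between the activated genotypes (adjusted p = 0.991).

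The regulators examined were 28 measured genes of 30 listed, covering the NFAT, AP-1, NF-kappa-B and RUNX families, Ikaros family members and factors that act on mRNA decay. After activation 1 of them was higher in Cre+ cells, against 0.63% of all genes, and 0 were lower, with 7 at an unadjusted p under 0.05 in limma. It was Bhlhe40, a transcription factor known for its role in GM-CSF production by T cells. Bhlhe40 read 9.05, 9.14 and 9.10 in activated Cre- cells and 9.87, 9.68 and 9.97 in activated Cre+ cells. The groups did not overlap, and the difference was 0.74 (SE 0.10, adjusted p = 0.0049). The call was lost in the fit to the activated arrays alone (adjusted p = 0.157).

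At baseline Bhlhe40 read 6.75, 6.79 and 6.71 in Cre- cells and 6.72, 6.72 and 6.91 in Cre+ cells. It then rose by 2.35 in Cre- cells and by 3.06 in Cre+ cells, and the difference of 0.71 did not pass (adjusted p = 0.325), except with array weights (adjusted p = 0.0170). Among all 28 regulators activation raised 7 and lowered 6 in Cre- cells, and raised 9 and lowered 5 in Cre+ cells. Of all genes 9.39% rose and 9.1% fell in Cre- cells, and 10.1% rose and 10.6% fell in Cre+ cells. Fosl1, a Fos relative of the AP-1 complex, rose by 2.22 and 1.83.

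The genes that encode the receptor chains followed another pattern. In Cre- cells Csf2rb, the common beta chain, read 6.39, 6.26 and 6.50 at baseline and 3.41, 4.58 and 4.61 after activation. In Cre+ cells it read 5.63, 6.07 and 6.94 at baseline and 4.77, 4.51 and 5.31 after activation. The activated arrays lay below the baseline arrays in both genotypes. Csf2rb fell by 2.18 in Cre- cells (SE 0.36, adjusted p = 0.00167), which is 4.54-fold. In Cre+ cells it fell by 1.35 (SE 0.36, adjusted p = 0.0212), which is 2.54-fold. The activated Cre- value of 3.41 lies below the array medians (4.04 to 4.17), so the 4.54-fold is not an exact size. The Cre+ call was lost when 1 of 3 arrays was left out: Cre+ baseline array 3 (-0.98, adjusted p = 0.0865), Cre+ activated array 1 (-1.30, adjusted p = 0.0713) or Cre+ activated array 2 (-1.17, adjusted p = 0.0594).

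Csf2rb2, the beta chain of the interleukin-3 receptor alone, read 6.66, 6.34 and 6.42 in Cre- cells at baseline and 3.11, 3.80 and 4.49 after activation. In Cre+ cells it read 5.74, 6.04 and 7.15 at baseline and 3.89, 3.49 and 4.02 after activation. The states did not overlap in either genotype. Csf2rb2 fell by 2.67 in Cre- cells (6.37-fold, adjusted p = 0.000514) and by 2.51 in Cre+ cells (5.71-fold, adjusted p = 0.000713). Both calls held in every alternative run. Apart from 4.49, the activated Csf2rb2 values lie below the array medians (4.04 to 4.17), where signal is hard to tell from background. These folds are therefore not exact sizes and may understate the change. Between the activated genotypes the arrays overlapped for both beta chains. Csf2rb2 differed by -0.003 there and Csf2rb by 0.66 (SE 0.36), which ran from 0.27 to 0.87 with 1 array left out. Whether the 2 chains differ in this was not tested, and the Csf2rb2 difference compares values that are hard to tell from background. The 2 genes are close copies, so probes could read part of each other's RNA.

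The alpha chain genes moved less. In Cre- cells Csf2ra read 6.20, 5.92 and 5.95 at baseline and 5.42, 5.90 and 5.37 after activation. In Cre+ cells it read 5.80, 5.94 and 6.28 at baseline and 5.58, 5.60 and 5.42 after activation. The states did not overlap in either genotype, but the distance was small. The changes of -0.46 (SE 0.17, adjusted p = 0.0777) and -0.47 (adjusted p = 0.0647) did not pass. They passed when only genes with a mean of at least 5 were tested, with adjusted p of 0.0454 and 0.0388. Without Cre- activated array 2 they were -0.63 (adjusted p = 0.0193) and -0.47 (adjusted p = 0.0350), and the Cre+ change also passed without Cre- activated array 3 (adjusted p = 0.0479) and with array weights (adjusted p = 0.0327).

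Il3ra, the alpha chain for interleukin-3, read 5.26, 5.07 and 5.11 in Cre- cells at baseline and 4.94, 4.79 and 4.46 after activation. In Cre+ cells it read 4.67, 5.15 and 5.10 at baseline and 4.67, 4.98 and 4.76 after activation, so the states overlapped there. Its changes were -0.41 (adjusted p = 0.0989) in Cre- cells and -0.17 (adjusted p = 0.521) in Cre+ cells. Of the 4 receptor genes, the 2 beta chains thus fell in each genotype and the alpha chains did not pass. Among all genes 9.1% fell in Cre- cells and 10.6% in Cre+ cells. All 3 activated arrays lay below the baseline arrays for 17.4% of genes in Cre- cells and 19.3% in Cre+ cells.

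No receptor gene passed between the genotypes at baseline. The differences were -0.17 (95% interval -0.97 to 0.62) for Csf2rb, -0.16 (95% interval -0.97 to 0.65) for Csf2rb2, -0.01 (95% interval -0.37 to 0.35) for Csf2ra and -0.17 (95% interval -0.51 to 0.18) for Il3ra. Among the 3 Cre+ baseline arrays, array 3 was highest for both beta chains. It was also highest for the marker means of monocytes and macrophages (6.62), dendritic cells (5.45), CD8 T cells (7.33), neutrophils (4.15), eosinophils (3.63), and basophils and mast cells (2.76). The T cell and the NK and innate lymphoid cell means were not highest there, and the B cell mean was lowest (8.05). Among the Cre- baseline arrays Csf2rb and the dendritic cell mean were highest on array 3. Csf2rb2 and the monocyte and macrophage mean were highest on array 1.

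The fall of the beta chains went with that of markers of several cell types. Of 8 monocyte and macrophage markers, 8 fell with activation in Cre- cells and 7 in Cre+ cells, against 9.1% and 10.6% of all genes. Their mean was 5.79 to 6.03 on the Cre- baseline arrays and 4.14 to 4.28 on the Cre- activated arrays. In Cre+ cells it was 5.97, 6.13 and 6.62 at baseline and 4.48 to 4.55 after activation. The Cre+ baseline mean holds Itgam, an integrin gene, which was higher in Cre+ than in Cre- cells at baseline (8.49 ± 0.23 against 5.77 ± 0.42, SD, n = 3, adjusted p = 0.000335). The median baseline difference of the 8 markers was -0.04. Of 7 dendritic cell markers 5 and 4 fell, of 7 neutrophil markers 3 and 3, and of 9 B cell markers 8 and 6. Of 10 markers of basophils and mast cells only Kit passed. Of 6 T cell markers 1 fell in Cre- cells (Cd3g) and 4 in Cre+ cells (Cd3d, Cd3e, Cd3g and Cd4). Of 4 markers of NK and innate lymphoid cells, Ncr1 and Klrb1c fell in both genotypes, while Eomes rose in Cre+ cells. The part of these cells in the fall of Csf2rb and Csf2rb2 was not tested. In such bulk samples fewer cells of a type and less RNA per cell cannot be told apart.

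**Figure D5:**
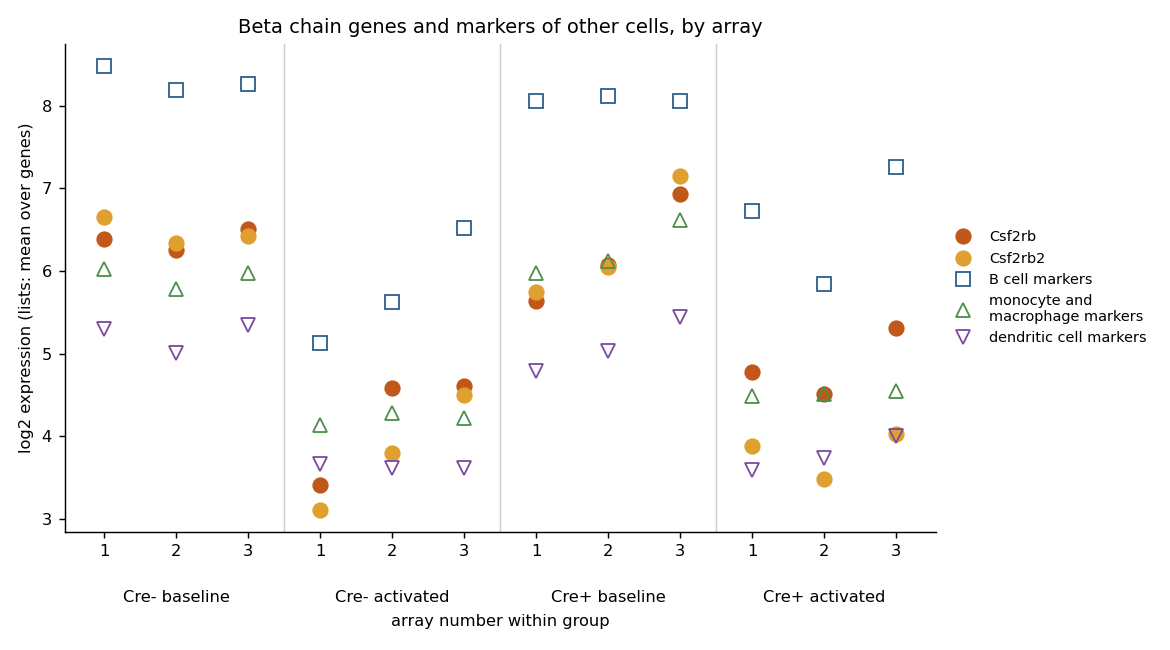
Log2 expression of Csf2rb and Csf2rb2 on the 12 arrays (filled circles) with the mean of 9 B cell, 8 monocyte and macrophage, and 7 dendritic cell markers (open symbols). Both beta chain genes and the 3 lists are lower on the activated than on the baseline arrays of each genotype. Cre+ baseline array 3 is high for both genes (6.94 and 7.15) and for monocyte and macrophage markers (6.62), but not for B cell markers (8.05).

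Downstream of the receptors, 16 of 18 listed signalling genes were measured. After activation 1 was higher in Cre+ cells, against 0.63% of all genes, and 0 were lower, with 1 at an unadjusted p under 0.05 in limma, and the median difference was -0.02 against -0.01 for all genes. The gene was Stat5a, a STAT5 transcription factor that also serves the interleukin-2 receptor. It read 9.66, 9.57 and 9.65 in activated Cre- cells and 10.41, 10.10 and 10.17 in activated Cre+ cells. The groups did not overlap, and the difference was 0.60 (SE 0.10, adjusted p = 0.0209). The call was lost in 6 alternatives, among them the fit to the activated arrays alone (adjusted p = 0.285), the fit without both arrays numbered 3 (adjusted p = 0.0529), and the fits without Cre- array 1 (adjusted p = 0.0693), Cre- array 2 (adjusted p = 0.109), Cre+ array 1 (adjusted p = 0.102) or Cre+ array 3 (adjusted p = 0.0523).

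At baseline Stat5a was 8.15, 8.07 and 7.97 in Cre- cells and 8.37, 8.39 and 8.40 in Cre+ cells, a difference of 0.33 that did not pass (adjusted p = 0.355). Its close relative Stat5b differed by -0.03 after activation (adjusted p = 1). Jak2, the kinase bound to the beta chain, rose with activation by 0.68 in Cre- cells (adjusted p = 0.000964) and by 0.85 in Cre+ cells (adjusted p = 0.000195), and differed by 0.16 between the activated genotypes. Over the list, activation raised 2 and lowered 7 genes in Cre- cells (against 9.39% and 9.1% of all genes), and raised 4 and lowered 6 in Cre+ cells (against 10.1% and 10.6%). Among those that fell in both were Inpp5d and Ptpn6, which encode the phosphatases SHIP1 and SHP-1, by 0.45 and 0.47 in Cre- cells and by 0.38 and 0.61 in Cre+ cells.

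Of 10 targets and feedback genes of STAT5, 7 rose with activation in Cre- cells and 8 in Cre+ cells, against 9.39% and 10.1% of all genes, and 0 fell in either. Cish, a feedback inhibitor of cytokine receptors, rose by 2.61 in Cre- and 2.38 in Cre+ cells. Pim2, a survival kinase, rose by 2.40 and 2.25, and Socs1, another feedback inhibitor, by 1.77 and 1.59. These genes respond to interleukin-2 as well and are not specific to the receptors described here. None of the 10 passed between the activated genotypes in limma, with 1 at an unadjusted p under 0.05, and the median difference was 0.15. Socs2 had the largest difference, 0.92 (adjusted p = 0.0677), which passed with array weights (adjusted p = 0.00307), with the minimum mean of 5 (adjusted p = 0.0492) and without Cre- baseline array 3 (adjusted p = 0.0199). With array weights 2416 of all genes passed this comparison.

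Of 12 activation markers, 11 rose in Cre- cells and 12 in Cre+ cells, against 9.39% and 10.1% of all genes. None passed between the activated genotypes in limma, with 2 at an unadjusted p under 0.05. At baseline 10 of the 12 were higher on average in Cre+ cells, with a median difference of 0.27 against 0.002 for all genes. Of the 12, 1 passed there, against 0.552% of all genes, with 5 at an unadjusted p under 0.05 in limma. It was Irf4, a transcription factor induced by antigen receptor signals, which was higher in Cre+ cells by 0.95 (adjusted p = 0.00317).

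The genes whose values across the 12 arrays were most like those of the cytokines were sought among 19358 named genes, leaving out the 6 genes described here. Csf2 itself had a correlation of 0.987 with Il3. For Il3 these were Mpzl3 (Pearson correlation 0.988), Ece1 (0.981), Ppfibp1 (0.977), Tnfsf11 (0.968) and Stk38l (0.966). For Csf2 they were Mpzl3 (0.985), Ppfibp1 (0.976), Ece1 (0.972), Msantd4 (0.962) and Marchf5 (0.962). Mpzl3 encodes a membrane protein of the myelin protein zero family, and Ece1 encodes endothelin converting enzyme. Their ranges were narrower than those of the cytokines: Mpzl3 had baseline means of 6.43 in Cre- and 6.55 in Cre+ cells, and means of 6.88 and 7.63 after activation. Ece1 had means of 6.99 and 6.96 at baseline, and of 7.19 and 7.99 after activation. The 12 arrays share 4 groups, and rank order changed the list: by Spearman correlation with Il3, Mpzl3 was the 50th and Ece1 the 498th gene. On the 6 activated arrays alone the correlation with Il3 was 0.993 for both genes, where Mpzl3 ranked 7 and Ece1 ranked 6.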

How the data were processed

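CD4+ T cells from mouse spleen were profiled in 4 groups of 3 arrays. The authors deposited log2 expression values made with RMA (affy 1.36.1, R 2.15.1, per the submitters' processing notes). Their probe set definition and genome build were not given in the sources used here. Of 25206 probe sets, 23185 paired with 1 gene and the 2021 without a gene were not used. No filter on low values was used. Arrays carry no counts, so their number limits the precision. No source used here says that replicates were separate animals. Xist and Eif2s3y showed both sexes in every group, so the 3 arrays of a group were not all from 1 animal. Whether each array was a separate animal is not known, so p-values measure the spread between these samples.

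All 12 arrays went into 1 limma model (limma 3.58.1, R 4.3.3) with group means as its only terms and 8 residual and 3.55 prior degrees of freedom. Tests were two-sided with Benjamini-Hochberg adjustment over 23185 genes. On simulated data for the activated genotype comparison it recovered 82% of genes planted at a log2 difference of 1 and 98% at 2, with 10 false calls. Each simulated gene was drawn independently, with the same spread in all groups. The activated arrays here share deviations over many genes, so these rates may not hold for them. The genes, lists and tests were chosen with earlier results of these data known. Named genes were the 6 described, list genes that passed between genotypes or had the 3 smallest p of their list in a comparison, 10 genes fixed by name (such as Il5, Stat5b and Ikzf1), the neighbours, and the 5 most alike. Il3 and Csf2 were tested only at baseline, the receptors also for activation. Promoter windows and gene order come from RefSeq (GRCm38.p6). They do not cover Csf2rb. RefSeq lists noncoding genes that overlap Il3 and Csf2 (LOC115487722 and Gm12223), neither of which was in the value table. Whether the probes could read them was not examined.

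Alternatives were array weights, a minimum mean of 5, robust moderation with a trend, other scalings, a block for the replicate number, fits to only the arrays compared, and each array left out in turn. A fit without the activated arrays numbered 3 was chosen after seeing the data. Same-numbered arrays were not from 1 animal throughout, since their sex by Xist and Eif2s3y differed, and the numbers were not used as pairs.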

Additional observations from a re-analysis of the deposited data

How the results depend on the processing

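Il3 and Csf2 kept the sign of their differences in all 150 values computed for comparisons that use activated arrays. Both genes were chosen by their activated levels, and their activated groups do not overlap. Leaving out 1 array therefore could not reverse the genotype difference after activation, and leaving out a baseline array does not change it. The genotype difference after activation ran from 3.37 to 3.84 for Il3 and from 2.25 to 3.17 for Csf2 with 1 array left out. A mean of at least 5 leaves 3 of the 6 genes, without Il3, Csf2 and Il3ra. Baseline genotype differences near 0 changed sign with 1 array left out, from -0.0725 to 0.208 for Il3, -0.0101 to 0.185 for Csf2, -0.54 to 0.12 for Csf2rb, -0.58 to 0.13 for Csf2rb2 and -0.150 to 0.0922 for Csf2ra. For Il5 after activation the range was -0.28 to 0.0247, and array weights gave 0.18. For Stat5b it was -0.29 to 0.185.

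Counts of genes that passed depended more on the setting. At baseline 128 genes passed, against 83 with a mean of at least 5, 321 with array weights, 251 with only the arrays compared and 266 without the activated arrays numbered 3. After activation 169 passed between the genotypes, against 2416 with array weights and 9 with only the arrays compared. Activation in Cre+ cells gave 4795 genes and 8292 with array weights. For the difference of responses 2 genes passed, against 143 with array weights, 5 with the replicate block, 11 without the activated arrays numbered 3 and 0 with a mean of at least 5 (limma, 376 of 9444 at an unadjusted p under 0.05). With 1 array left out the counts were 50 to 199 at baseline, 72 to 283 between activated genotypes, 2877 to 4718 and 3148 to 5922 for activation in Cre- and Cre+ cells, and 2 to 25 for the difference of responses. The causes were not tested. Fits to only the arrays compared have fewer samples, and they gave more genes at baseline (251) but fewer after activation (9). That setting gives no difference of responses. The replicate number as a block gave 127, 189, 4692, 5082 and 5 genes in the 5 comparisons. Deviations from the group means on same-numbered activated arrays of the genotypes correlated at -0.045, 0.571 and 0.728 for numbers 1, 2 and 3. Whether arrays with the same number shared a culture or a run was not tested. Values near the bottom of the range, as for Il3 and Csf2 at baseline, lie where array signal is hard to tell from background.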
